A study of Mus musculus with 15 samples.

Results

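The genes described here encode 9 mRNA-binding regulators of translation: Pabpc1, Fmr1, Elavl1, Igf2bp1, Igf2bp3, Pum2, Larp1, Caprin1 and G3bp1. They were taken by name: every probe set of the Affymetrix mouse array whose platform gene symbol was one of these 9 was kept, which gave 25 of the 22626 probe sets tested. Caprin1 had 6 probe sets, Igf2bp3 had 4, Fmr1 and Pum2 had 3 each, Pabpc1, Elavl1, Igf2bp1 and G3bp1 had 2 each, and Larp1 had 1. The cells were primary neural stem cells of female mice of strain C57/B16 aged 6 weeks, grown as neurospheres, which are free-floating cell clusters. They were left untreated (control) or were given CD95L-T4, in which the ligand that activates the death receptor CD95 (Fas) is made as a trimer, and RNA was prepared after 48 h. Total RNA came from whole cells and polysomal RNA from mRNA carrying several ribosomes. Each of the 4 groups had 4 arrays, except the polysomal RNA of CD95L-T4 cultures, which had 3. Arrays of 1 group are called biological replicates in the labels, which do not say whether they came from separate animals, so p-values measure the spread between these samples. Polysomal RNA was extracted with phenol and chloroform and labelled as polyA RNA, whereas a column kit served for total RNA, so fraction, extraction and molecule cannot be told apart.

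Proteins of this kind bind an mRNA at its cap, its poly(A) tail or its untranslated regions and set how often ribosomes load, how long the mRNA lasts and where it is kept. Poly(A)-binding protein (Pabpc1) joins the tail to the cap complex, and LARP1 (Larp1) holds the caps of mRNAs that begin with a pyrimidine tract when mTOR is inactive. FMRP (Fmr1) and Pumilio 2 (Pum2) repress their targets, HuR (Elavl1) and the IMP proteins (Igf2bp1, Igf2bp3) stabilise theirs, and Caprin-1 with G3BP1 builds stress granules and neuronal RNA granules. Many of these genes are active in neural progenitors, where loss of FMRP or of Pumilio proteins alters differentiation.

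Values are log2 intensities, in which a difference of 1 is a doubling. The authors normalized the arrays, whose medians lay between 6.92 and 6.98 in total and between 6.83 and 6.88 in polysomal RNA. Shifting the arrays to equal medians raised the differences between fractions by 0.09. A lower value in polysomal RNA is thus read as a smaller share of that fraction than of total RNA, not as fewer molecules. The level of 1 probe set cannot be set against that of another, so each probe set is compared only with itself, and its rank among all probe sets says only how bright it was. Of 9 measured markers of neural stem and progenitor cells, 7 lay above the 75th percentile of all probe sets, with Fabp7, Vim and Sox2 at the 99.8th, 99.1st and 95.6th. Prom1 lay at the 14.1st. All 5 microglial, 4 endothelial and 4 fibroblast markers lay below the 50th percentile, none higher than the 35.6th. Markers of the lineages that neural stem cells give rise to were mixed: Olig1 and Olig2 of the oligodendrocyte lineage lay at the 99.3rd and 96.5th percentiles, neuronal Map2 at the 78.3rd and astrocytic S100b at the 65.4th. Below the 50th percentile lay 3 of 6 measured oligodendrocyte, 4 of 6 neuronal and 4 of 5 astrocytic markers. The lowest marker of each of these lineages, Mog, Rbfox3 and Gjb6, lay at the 3.72nd, 9.03rd and 1.16th. The difference between the 3' and the 5' beta-actin control probe sets, a sign of RNA integrity and labelling, was 0.41 ± 0.12 (SD, n = 4) in total and 0.77 ± 0.03 (n = 4) in polysomal RNA of control cultures. The same difference in CD95L-T4 cultures was 0.39 ± 0.07 in total (n = 4) and 0.77 ± 0.23 in polysomal RNA (n = 3), so it moved with the fraction. It was 1.03 on CD95L-T4 polysomal replicate 3, the highest of all arrays, and 0.59 and 0.68 on replicates 1 and 2. Its part in the differences between fractions, or in calls that depended on replicate 3, was not tested. The mean of the poly-A labelling controls was 7.365 to 7.99 in total and 8.34 to 8.90 in polysomal RNA of control cultures. In CD95L-T4 cultures it was 7.32 to 8.46 in total and 8.05 to 9.71 in polysomal RNA, and its part was not tested either. In such bulk samples fewer cells of a type and less RNA per cell cannot be told apart.

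Most of these mRNAs were a smaller share of polysomal than of total RNA. In control cultures 20 of the 25 probe sets differed between fractions, against 56.1% of all probe sets. Of the 25, 18 were lower in polysomal RNA, against 26.3% of all probe sets, and 2 were higher, against 29.8% (limma, adjusted p under 0.05). The median log2 difference was -0.60 over the 25 and 0.06 over all probe sets. In CD95L-T4 cultures, measured on other arrays, 18 of the 25 differed, against 51.3% of all, of which 16 were lower, against 24.6% of all, and 2 were higher, against 26.7%. The same 16 had been lower in control cultures and the same 2 higher. Probe sets of 1 gene are not separate results, and Caprin1 gave 6 of the lower ones in each culture. Counted by each gene's brightest probe set, 8 of the 9 genes were lower in control cultures, against 23.2% of all genes. In CD95L-T4 cultures 6 were, against 21.8%, and 1 was higher in each culture. By the mean over a gene's probe sets, Pabpc1 did not pass in either culture, and Igf2bp1, Igf2bp3 and Pum2 did not in CD95L-T4 cultures. The arrays of the fractions did not overlap for 19 of the 25 in control cultures (54.6% of all probe sets) and for 16 in CD95L-T4 cultures (47.7%). Brightness differed between the members and the rest, so the counts were also read within 4 equal classes of mean brightness. Of the 25, 13 lay in the brightest class, and all 13 were lower in control polysomal RNA, whereas 38.7% of the 5657 probe sets of that class were lower and 39.7% higher. In CD95L-T4 cultures 12 of the 13 were lower, against 34.2% of that class.

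**Figure D1:**
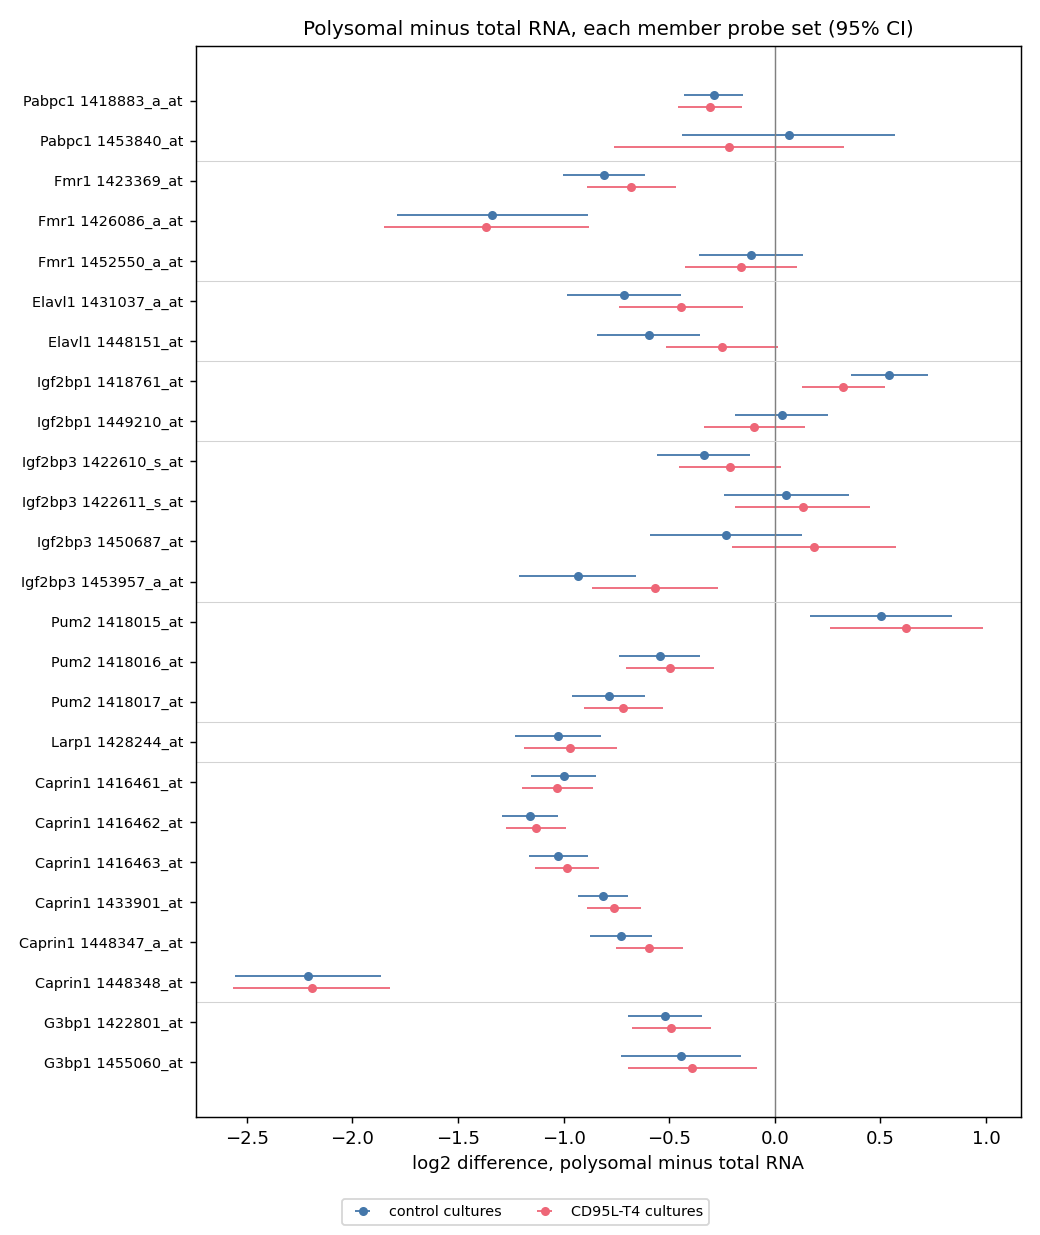
The log2 difference of polysomal minus total RNA (horizontal axis) is drawn for each of the 25 probe sets with its 95% confidence interval, blue for control and red for CD95L-T4 cultures. Most points lie left of 0, from -2.21 (Caprin1, probe set 1448348_at) to 0.54 (Igf2bp1, 1418761_at) in control cultures.

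Caprin1 had the largest difference of any member probe set, on 1448348_at, and the largest mean over a gene's probe sets in control cultures (-1.16 ± 0.06). This gene, whose protein binds G3BP1 and carries mRNAs in granules, was lower in polysomal RNA on all 6 of its probe sets. On its brightest, 1448347_a_at, the control total arrays read 12.74, 12.76, 12.79 and 12.73 and the control polysomal arrays 12.04, 12.06, 11.98 and 12.02. The groups lay far apart, with a difference of -0.73 ± 0.07 (SE, 1.66-fold lower, adjusted p = 7.75e-08). CD95L-T4 cultures read 12.76, 12.75, 12.68 and 12.51 in total and 12.09, 11.98 and 12.17 in polysomal RNA, a difference of -0.60 ± 0.08 (adjusted p = 2.98e-06). Probe sets 1433901_at, 1416461_at, 1416463_at and 1416462_at of Caprin1 lay between -0.81 and -1.16 in control cultures. The dimmer 1448348_at gave far more: 10.16, 10.49, 10.54 and 10.57 in control total against 8.45, 8.39, 8.04 and 8.04 in control polysomal arrays, a 4.63-fold fall (-2.21 ± 0.16, adjusted p = 3.53e-09). Only 0.331% of all probe sets had a lower difference. It was -2.19 ± 0.18 in CD95L-T4 cultures, so this larger fall was seen on both sets of arrays.

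G3bp1 encodes the scaffold that nucleates stress granules. Probe set 1422801_at read 11.14, 10.96, 10.98 and 10.99 in control total and 10.38, 10.48, 10.50 and 10.63 in control polysomal arrays. Every polysomal array was below every total array, and the fall was 0.52 ± 0.08 on the log2 scale (1.43-fold, adjusted p = 3.16e-05). In CD95L-T4 cultures G3bp1 fell by 0.49 ± 0.09 (adjusted p = 0.000149). Its dimmer probe set 1455060_at fell by 0.45 ± 0.13 in control cultures (adjusted p = 0.00889) and by 0.39 ± 0.14 in CD95L-T4 cultures (adjusted p = 0.0315). There the total arrays, at 8.30 to 8.80, and the polysomal arrays, at 7.86 to 8.43, overlapped. In the absence of total replicate 2 or 4 of these cultures the difference did not pass (-0.30 and -0.34), nor did it without polysomal replicate 1 or 2 (-0.40 and -0.25). It also did not pass with arrays shifted to equal medians, with only the compared groups in the fit and with a replicate block (adjusted p = 0.0686).

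Larp1, measured by 1 probe set (1428244_at), showed a fall of similar size to Caprin1. The control total arrays read 10.65, 10.58, 10.55 and 10.50 and the control polysomal arrays 9.51, 9.46, 9.62 and 9.58. No array of either fraction came near the other, and the difference was -1.03 ± 0.10 (2.04-fold lower, adjusted p = 6.17e-08). In CD95L-T4 cultures the total arrays read 10.45, 10.67, 10.62 and 10.71 and the polysomal arrays 9.65, 9.37 and 9.91, a difference of -0.97 ± 0.10 (adjusted p = 4.46e-07). Replicate 3 was the highest of these polysomal arrays and replicate 2 the lowest.

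Pabpc1, the cytoplasmic poly(A)-binding protein, was the brightest member, at the 99.1st percentile of probe sets. On 1418883_a_at the control total arrays read 13.06, 13.20, 13.13 and 13.22 and the control polysomal arrays 12.88, 12.86, 12.82 and 12.89. The groups did not overlap, but the fall was only 0.29 ± 0.07 (1.22-fold, adjusted p = 0.00119), and it was 0.31 ± 0.07 in CD95L-T4 cultures (adjusted p = 0.00149). The other Pabpc1 probe set, 1453840_at, was dim (44.5th percentile) and spread from 5.90 to 6.81 in control polysomal arrays. It gave 0.07 ± 0.24 in control cultures and did not pass, and the mean of the pair did not pass either (-0.11, adjusted p = 0.458, and -0.26, adjusted p = 0.111, in the control and CD95L-T4 cultures).

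Since LARP1 binds mRNAs that begin with a pyrimidine tract, the first 20 bases after the annotated start were read for the members (RefSeq, GRCm38.p6). Of the 9 genes 7 had an annotated start, with 10 starts in all. Pabpc1 and Igf2bp1 had no entry among these starts, so their first bases were not read. On the brightest probe set the control polysomal arrays of the 7 genes with a start all lay below their control total arrays. Starts of Elavl1, Igf2bp3 and Pum2 and a further start of Fmr1 are not printed. Those of 4 genes are shown 5′ to 3′ on the transcript's strand, and capitals mark the unbroken run of C and T from the first base. They lie at chr2:103797059-103797078 (minus strand, Caprin1), chr11:58009064-58009083 (plus, Larp1), chr11:55469752-55469771 (plus, G3bp1) and chrX:68678541-68678560 (plus, Fmr1).
Caprin1: CCCaccgcgcgcgcgcgtag
Larp1: gagccttctgcccggcgcgc
G3bp1: CCgccacctcctcccacgta
Fmr1: gtttgactgtttacaggagg
None of the 10 starts began with C followed by 4 bases that are each C or T, a form searched at the first base of the transcript's strand only. Among all 32851 annotated starts 2.51% did, and of 66 starts of Rpl and Rps ribosomal protein genes, whose mRNAs are known for such tracts, 18.2% did. Annotated starts can lie some bases from the true one, and the absence of these letters says nothing about binding.

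The repressors Fmr1 and Pum2 were lower on polysomes by their brightest probe sets. Fmr1 encodes FMRP, the protein lost in fragile X syndrome, which stalls ribosomes on its targets. On 1423369_at the control total arrays read 9.97, 9.99, 10.08 and 10.11 and the control polysomal arrays 9.18, 9.21, 9.23 and 9.29. The difference was -0.81 ± 0.09 (1.75-fold lower, adjusted p = 6.97e-07), with no overlap. CD95L-T4 total arrays read 10.09, 10.11, 9.84 and 10.01 and CD95L-T4 polysomal arrays 9.54, 9.06 and 9.40, a difference of -0.68 ± 0.10 (adjusted p = 1.64e-05). Probe set 1426086_a_at of Fmr1 fell further, by 1.34 ± 0.21 in control cultures (adjusted p = 3.48e-05). Probe set 1452550_a_at of Fmr1 did not pass (-0.11 ± 0.12), and its 95% interval, from -0.36 to 0.13, lay above that of 1423369_at.

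Pum2 encodes a Pumilio protein that binds UGUA-containing sites in 3' untranslated regions. On 1418016_at the control total arrays read 10.42, 10.35, 10.45 and 10.35 and the control polysomal arrays 9.94, 9.84, 9.75 and 9.86, a fall of 0.55 ± 0.09 (1.46-fold, adjusted p = 5.65e-05). On 1418017_at Pum2 fell by 0.79 ± 0.08 (adjusted p = 2.58e-07). Probe set 1418015_at went the other way: it read 8.49, 8.07, 8.19 and 8.12 in control total and 8.49, 8.69, 8.76 and 8.94 in control polysomal arrays. Its rise of 0.50 ± 0.16 passed (1.42-fold, adjusted p = 0.0124), with 1 total array level with the lowest polysomal array. In CD95L-T4 cultures 1418015_at rose by 0.62 ± 0.17 (adjusted p = 0.00547), which did not pass once CD95L-T4 polysomal replicate 3 was left out (0.40, adjusted p = 0.0528). Averaged over its 3 probe sets, Pum2 fell by 0.28 ± 0.09 in control cultures (adjusted p = 0.0169) and did not pass in CD95L-T4 cultures (-0.20, adjusted p = 0.114).

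Of the stabilising proteins, Elavl1 was bright and lower on polysomes in control cultures. HuR, its product, binds AU-rich elements. On 1448151_at the control total arrays read 10.38, 10.49, 10.47 and 10.43 and the control polysomal arrays 9.67, 9.85, 9.93 and 9.93, a fall of 0.60 ± 0.12 (1.51-fold, adjusted p = 0.000265). On 1431037_a_at Elavl1 read 10.31, 10.34, 10.42 and 10.36 in control total and 9.58, 9.60, 9.60 and 9.79 in control polysomal arrays, a fall of 0.72 ± 0.13 (adjusted p = 0.000115). In CD95L-T4 cultures the fractions overlapped on both probe sets. On 1448151_at the total arrays read 10.47, 10.49, 10.33 and 10.47 and the polysomal arrays 10.54, 9.79 and 10.24, and the difference of -0.25 ± 0.13 did not pass (adjusted p = 0.109). It passed without CD95L-T4 polysomal replicate 1, the highest array (-0.43, adjusted p = 0.00465). On 1431037_a_at the difference was -0.44 ± 0.14 (adjusted p = 0.0118), which no longer passed once CD95L-T4 polysomal replicate 2 was left out (-0.25, adjusted p = 0.104) and with only the compared groups in the fit (adjusted p = 0.0508).

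The IMP genes, known for high expression in embryonic tissue, were the dimmest members. Igf2bp1 lay at the 18.3rd and 17.7th percentiles on its 2 probe sets, just above Cx3cr1, a marker of microglia (17.5th), and Pecam1, a marker of endothelium (17.4th). The table gives no detection calls. On 1418761_at Igf2bp1 read 3.83, 3.94, 3.86 and 3.73 in control total and 4.34, 4.32, 4.33 and 4.54 in control polysomal arrays, a rise of 0.54 ± 0.09 (1.46-fold, adjusted p = 3.19e-05). In CD95L-T4 cultures it rose by 0.33 ± 0.09 (adjusted p = 0.00687), a call lost with the mean of both probe sets (0.11, adjusted p = 0.218). The other Igf2bp1 probe set, 1449210_at, gave 0.03 ± 0.10 and -0.10 ± 0.11 and did not pass. Within the dimmest of the 4 brightness classes 15.2% were higher and 5% lower in control polysomal RNA.

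Igf2bp3 was of middling brightness, between the 22.2nd and 55.6th percentiles. On 1422610_s_at it read 7.60, 7.61, 7.55 and 7.60 in control total and 7.03, 7.31, 7.25 and 7.42 in control polysomal arrays, a fall of 0.34 ± 0.11 (adjusted p = 0.0111). It did not pass after quantile normalization (-0.24, adjusted p = 0.0558). In CD95L-T4 cultures it did not pass (-0.21 ± 0.11, adjusted p = 0.133), but it did without CD95L-T4 polysomal replicate 3 (-0.37, adjusted p = 0.00533). On 1453957_a_at Igf2bp3 fell by 0.93 ± 0.13 in control cultures (adjusted p = 8.27e-06) and by 0.57 ± 0.14 in CD95L-T4 cultures (adjusted p = 0.00261). The remaining probe sets, 1422611_s_at and 1450687_at, did not pass in either culture. A name ending in _s_at marks probes that match more than 1 transcript, so signal of related genes may enter both such probe sets.

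**Figure D2:**
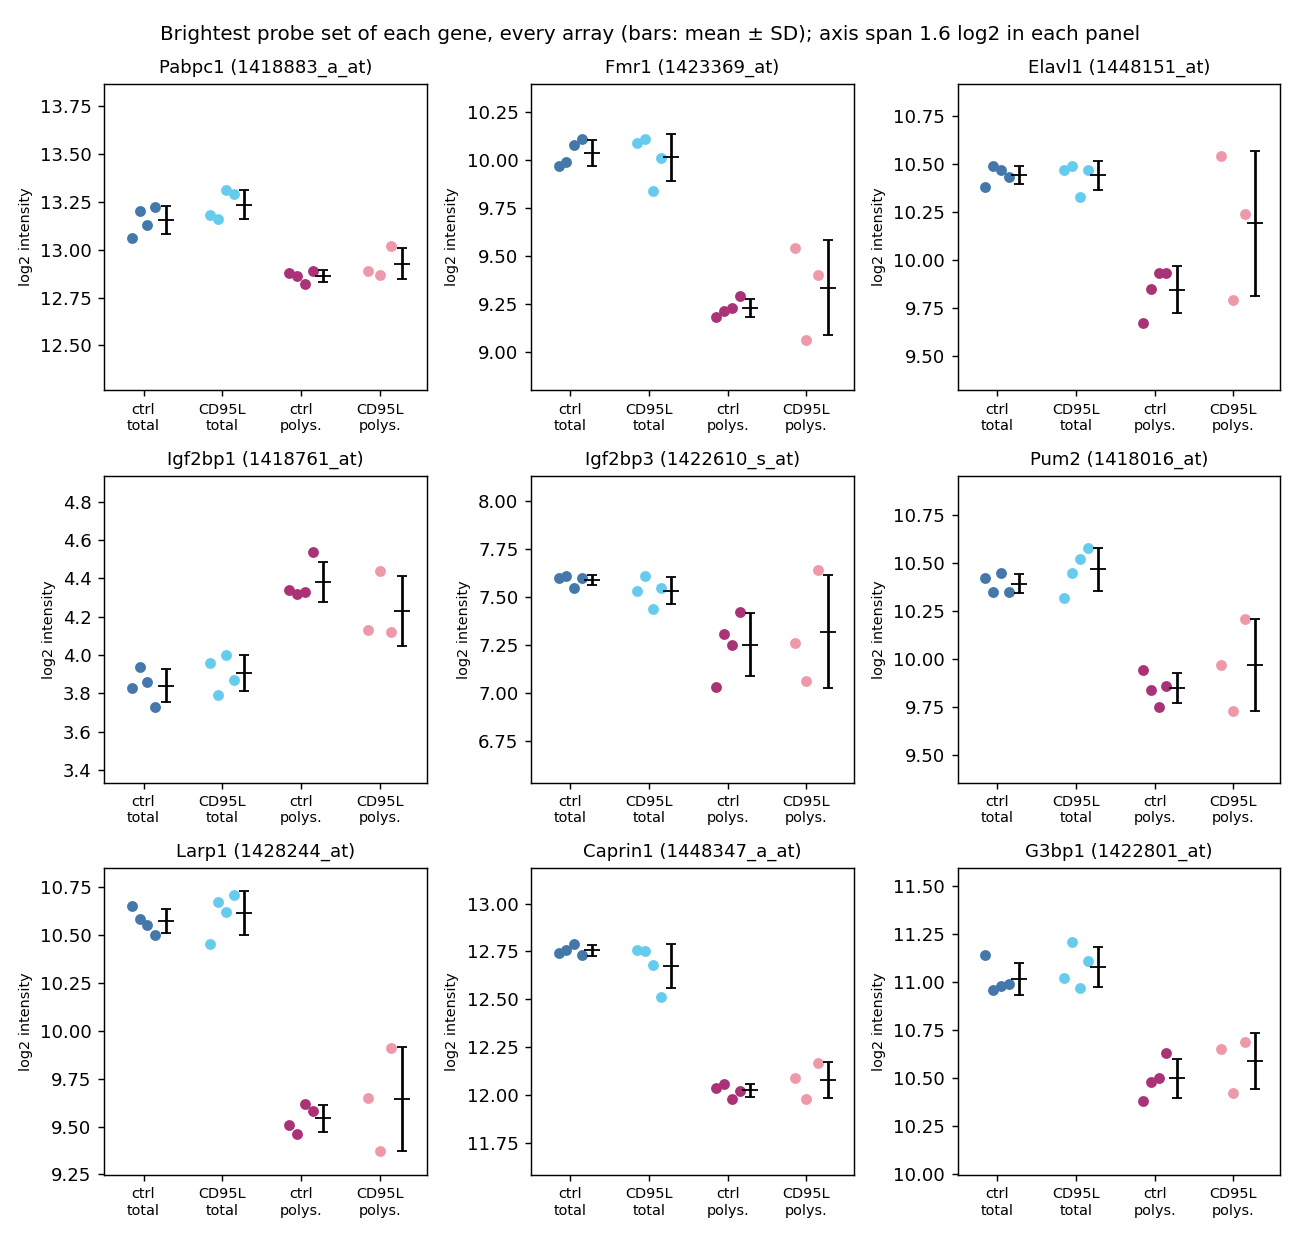
Each panel shows the log2 intensity (vertical axis) of the brightest probe set of 1 gene on every array of the 4 groups, with the mean ± SD as a bar. Control polysomal arrays lie below control total arrays in 8 panels and above them for Igf2bp1, and the 3 CD95L-T4 polysomal arrays have the largest SD of the 4 groups in every panel but that of Caprin1, with the widest range for Elavl1 (9.79 to 10.54).

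Probe sets of 1 gene often gave different sizes. Each of the 16 other probe sets was set against its gene's brightest one within each control array, and the difference was compared between fractions with a two-sided exact permutation test (4 against 4 arrays, for which 0.0286 is the smallest p possible). Of the 16 pairs, 10 had that smallest p (adjusted p = 0.0458 over the 16 pairs), a comparison chosen after the values were seen. With fewer ties at that p none would have passed. The Caprin1 pairs share 1448347_a_at and the same arrays, so they are not separate results, and 1433901_at differed by only -0.08. In 8 of the 10 the other probe set gave the lower difference between fractions and in 2, of Pum2 and Fmr1, the higher. For Igf2bp1 neither was below 0: 1449210_at gave 0.03 and 1418761_at 0.54 in control cultures. The widest gap was in Caprin1, where 1448348_at lay 1.48 below 1448347_a_at. For Pum2, 1418015_at lay 1.05 above 1418016_at, and for Fmr1, 1452550_a_at lay 0.70 above 1423369_at. For G3bp1 and Elavl1 the paired probe sets lay 0.08 and -0.12 apart, with p of 0.371 and 0.0857 by the same exact test. Where in the transcripts the probes lie was not analysed here.

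**Figure D3:**
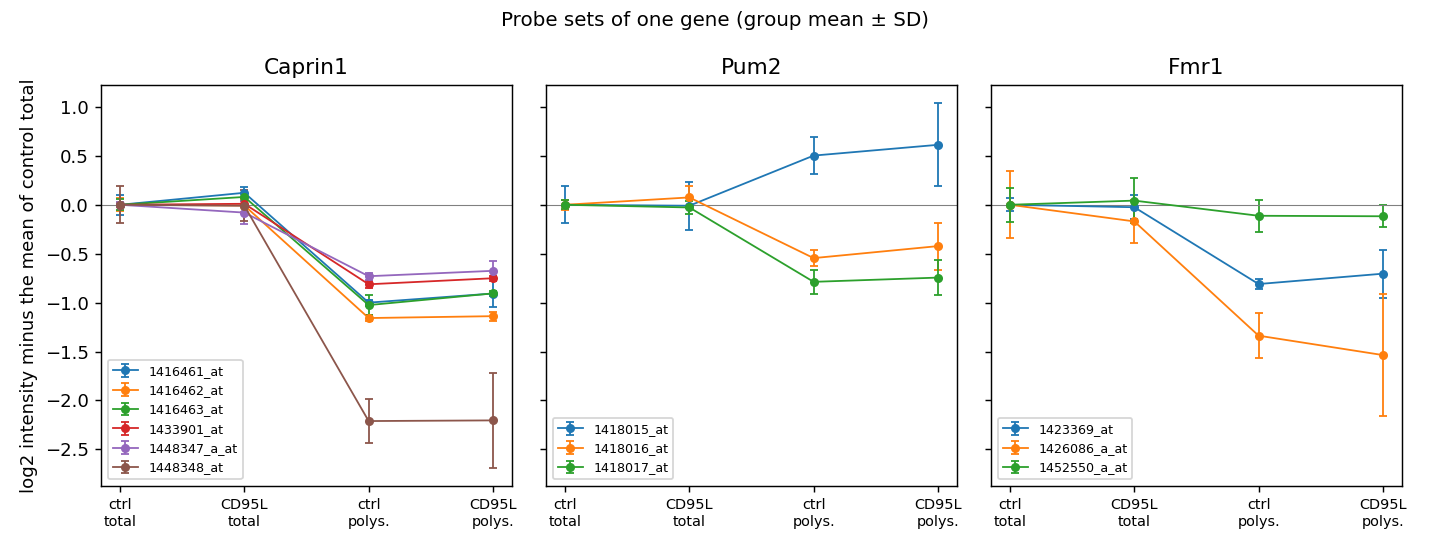
Group means ± SD of every probe set of Caprin1, Pum2 and Fmr1 are drawn on the log2 scale after subtracting the control total mean (vertical axis), in the order control total, CD95L-T4 total, control polysomal and CD95L-T4 polysomal (horizontal axis). The probe sets of a gene stay near 0 in total RNA and part in polysomal RNA, with Caprin1 1448348_at near -2.21 and Pum2 1418015_at above 0.

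CD95L-T4 changed none of these mRNAs past the test. In total RNA 0 of the 25 probe sets were called, as were 0% of all, and 1 had an unadjusted p under 0.05, against 3.74% of all. That was the dim Igf2bp1 probe set 1449210_at, at 0.23 ± 0.10 (adjusted p = 0.997 in limma). The groups overlapped on all 25, whereas 2.52% of all probe sets had groups that did not. The 25 differences ran from -0.17 to 0.23 with a median of 0.00. For 23 of the 25 the 95% interval excluded changes of 1.5-fold or more in either direction, and for all 25 it excluded changes of 2-fold or more. Caprin1 stood at -0.08 ± 0.07, Larp1 at 0.04 ± 0.10, G3bp1 at 0.06 ± 0.08, Pabpc1 at 0.08 ± 0.07, Pum2 at 0.08 ± 0.09, Fmr1 at -0.03 ± 0.09 and Elavl1 at 0.00 ± 0.12 on their brightest probe sets.

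In polysomal RNA 0 of the 25 were called (0% of all), and 1 had an unadjusted p under 0.05, against 9.65% of all. That 1 was Elavl1 1448151_at, at 0.35 ± 0.13 (adjusted p = 0.48 in limma). As the values above show, CD95L-T4 replicates 1 and 3, at 10.54 and 10.24, were above all 4 control arrays, and replicate 2, at 9.79, lay among them. Elavl1 1431037_a_at read 10.31, 9.46 and 9.79 in CD95L-T4 polysomal replicates 1, 2 and 3, with replicate 2 below all control arrays, and stood at 0.21 ± 0.14 (adjusted p = 0.625). The median over the 25 was 0.09, with 21 above 0, against 0.005 over all probe sets. For 21 of the 25 the interval stayed inside a 1.5-fold change, and for all of them inside a 2-fold change. These intervals use 1 variance shared by the 4 groups. The CD95L-T4 polysomal arrays spread more widely, for Elavl1 1448151_at with an SD of 0.38 against 0.05 to 0.12 in the other groups. The intervals may therefore be too narrow and do not exclude 1.5-fold changes. The arrays did not overlap for 1 of the 25, Caprin1 1416463_at (0.12 ± 0.07, adjusted p = 0.597), against 5.42% of all probe sets.

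Whether Elavl1 1448151_at was called depended on CD95L-T4 polysomal replicate 2 and on which groups were fitted. On the brightest probe sets this replicate was the lowest of its group for 8 genes and the highest for Igf2bp1. It read 9.06 for Fmr1, 9.37 for Larp1 and 9.73 for Pum2. The mean of the poly-A labelling controls was 9.71 on this array, against 8.05 and 8.19 on the other CD95L-T4 polysomal arrays and 8.34 to 8.90 on control polysomal arrays, and its part in the result was not tested. Without it Elavl1 1448151_at stood at 0.55 ± 0.10 (adjusted p = 0.00925), and it was the only probe set of the 25 called, against 6.13% of all. The second Elavl1 probe set then stood at 0.41 ± 0.12 (adjusted p = 0.0573), Fmr1 1423369_at at 0.24 ± 0.09 (adjusted p = 0.106), Pum2 1418016_at at 0.24 ± 0.09 (adjusted p = 0.126) and Larp1 at 0.24 ± 0.09 (adjusted p = 0.143). Igf2bp1 1418761_at went the other way, at -0.26 ± 0.09 (adjusted p = 0.0945 in limma), while 20 of the 25 stood above 0. This setting leaves 2 CD95L-T4 arrays. When only the polysomal arrays were fitted without replicate 2, Elavl1 1448151_at did not pass (0.55, adjusted p = 0.0964).

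**Figure D4:**
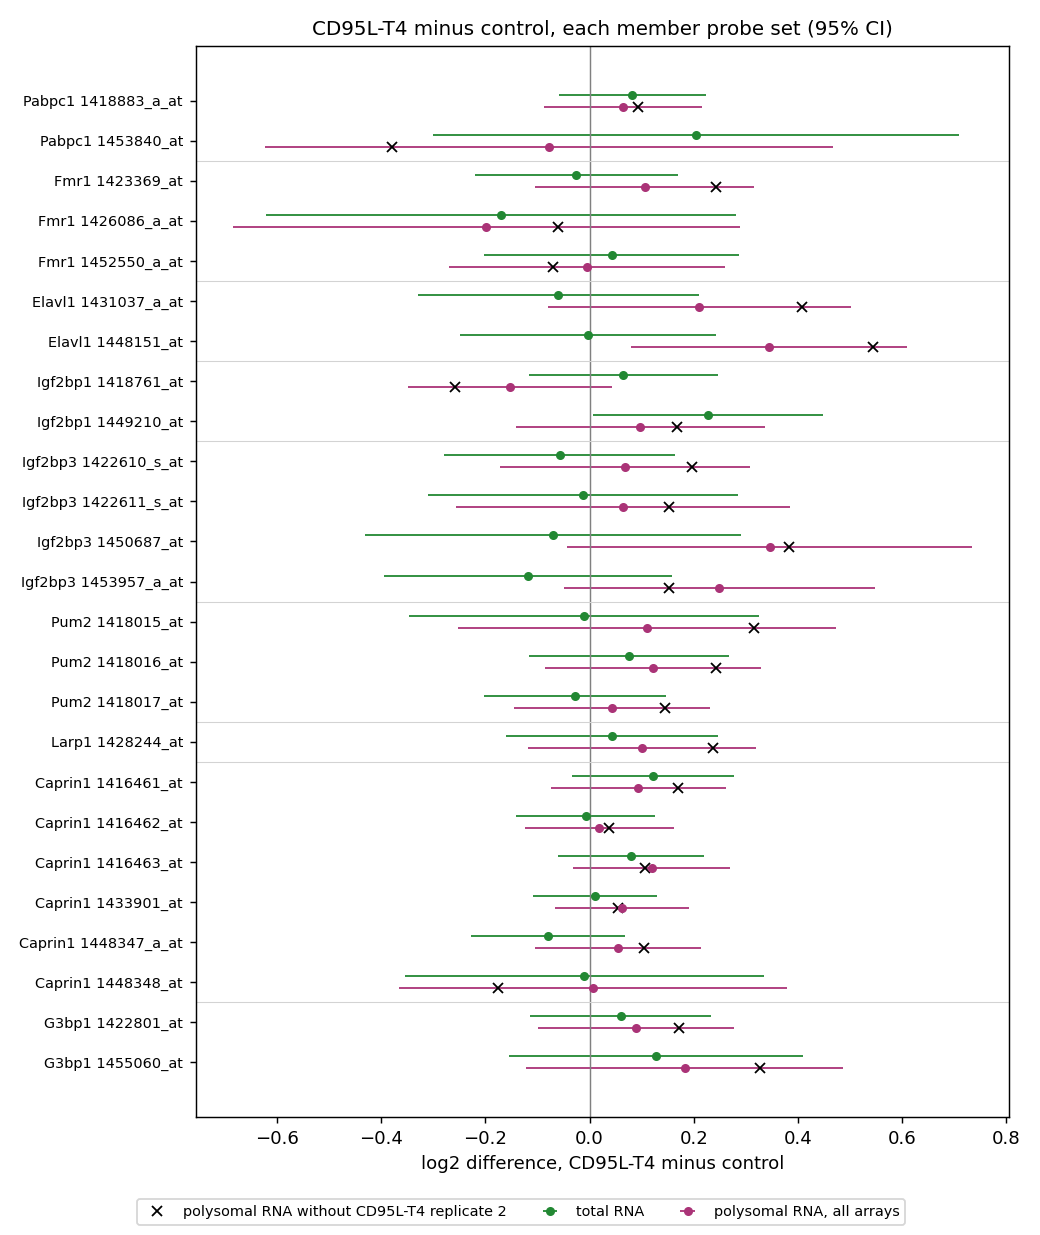
The log2 difference of CD95L-T4 minus control (horizontal axis) is drawn for each probe set with its 95% confidence interval, green for total and purple for polysomal RNA, and crosses give polysomal RNA without CD95L-T4 replicate 2. Intervals cross 0 for all but Igf2bp1 1449210_at in total and Elavl1 1448151_at in polysomal RNA, and the cross of the latter lies farthest right, at 0.55.

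The effect of CD95L-T4 also did not differ between the fractions past the test. The interaction called 0 of the 25 (0% of all), with 0 at an unadjusted p under 0.05 against 4.38% of all. The smallest p was again that of Elavl1 1448151_at, at 0.35 ± 0.17 (adjusted p = 0.897 in limma), followed by Igf2bp3 1453957_a_at at 0.37 ± 0.19 (adjusted p = 0.897). Without CD95L-T4 polysomal replicate 2 the Elavl1 difference was 0.55 (adjusted p = 0.102). Intervals were wider here: 18 of the 25 lay within a 1.5-fold change and 24 within 2-fold. They use the same shared variance and may also be too narrow.

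Other regulators of the same kind were read from a list of 62 genes, of which 52 were measured, with 1 probe set a gene (the brightest). In control cultures 26 of the 52 were lower on polysomes, against 23.2% of all genes, and 8 were higher, against 33.5%. The median difference was -0.25 against 0.10 over all genes. Many of the 52 were bright, and the list was not read within brightness classes. In the brightest class of all probe sets 38.7% were lower and 39.7% higher. The list was also chosen with earlier results of these data known. The largest falls were of the splicing and deadenylation regulator Celf1 (-1.02 ± 0.09), Larp4b, a relative of Larp1 (-0.97 ± 0.10), G3bp2, the paralog of G3bp1 (-0.91 ± 0.08), Celf2 (-0.68 ± 0.12), the AU-element binder Hnrnpd (-0.65 ± 0.13) and the helicase Ddx3x (-0.65 ± 0.08). The relative of Fmr1, Fxr1, fell by 0.33 ± 0.07 (adjusted p = 0.00071), and Fxr2 did not pass (-0.19 ± 0.09, adjusted p = 0.1).

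The genes that were higher on polysomes were led by Eif4ebp1, a repressor of the cap-binding factor (1.44 ± 0.09, 2.71-fold), Zfp36, which marks AU-rich mRNAs for decay (1.15 ± 0.08), the cold-shock protein gene Cirbp (0.98 ± 0.10) and Paip2, an inhibitor of the poly(A)-binding protein (0.78 ± 0.06). Nanos1, a partner of Pumilio, followed at 0.71 ± 0.08 and Eif4ebp2 at 0.66 ± 0.09. Paip2b, the relative of Paip2, was higher by 0.59 ± 0.06 (adjusted p = 2.06e-07), whereas Paip1, an activator that also binds Pabpc1, stood at 0.06 ± 0.11 and did not pass. The genes of both listed inhibitors of the poly(A)-binding protein were higher in polysomal RNA, as were 33.5% of all genes. Pabpc1 fell by 0.29 on its brightest probe set, but the mean of its 2 probe sets did not pass (-0.11, adjusted p = 0.458 in limma).

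In CD95L-T4 cultures 21 of the 52 were lower (21.8% of all genes) and 11 higher (29.6%). In the brightest class of all probe sets 34.2% were lower and 41.8% higher. Celf1 (-0.83 ± 0.10), G3bp2 (-0.79 ± 0.09), Larp4b (-0.73 ± 0.11), Ddx3x (-0.67 ± 0.09), the decay helicase Upf1 (-0.59 ± 0.09) and Syncrip (-0.52 ± 0.08) fell most. Eif4ebp1 (1.24 ± 0.09), Zfp36 (0.93 ± 0.09), Cirbp (0.87 ± 0.11), the Musashi gene Msi2 (0.86 ± 0.25), Eif4ebp2 (0.77 ± 0.09) and Stau2, which carries mRNA in dendrites (0.73 ± 0.14), rose most. With arrays shifted to equal medians the split was 22 lower and 10 higher in control cultures, and 17 and 14 in CD95L-T4 cultures. Of all called probe sets 46.9% were lower in control and 47.9% in CD95L-T4 cultures, and 36.7% and 37.9% with that shift.

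**Figure D5:**
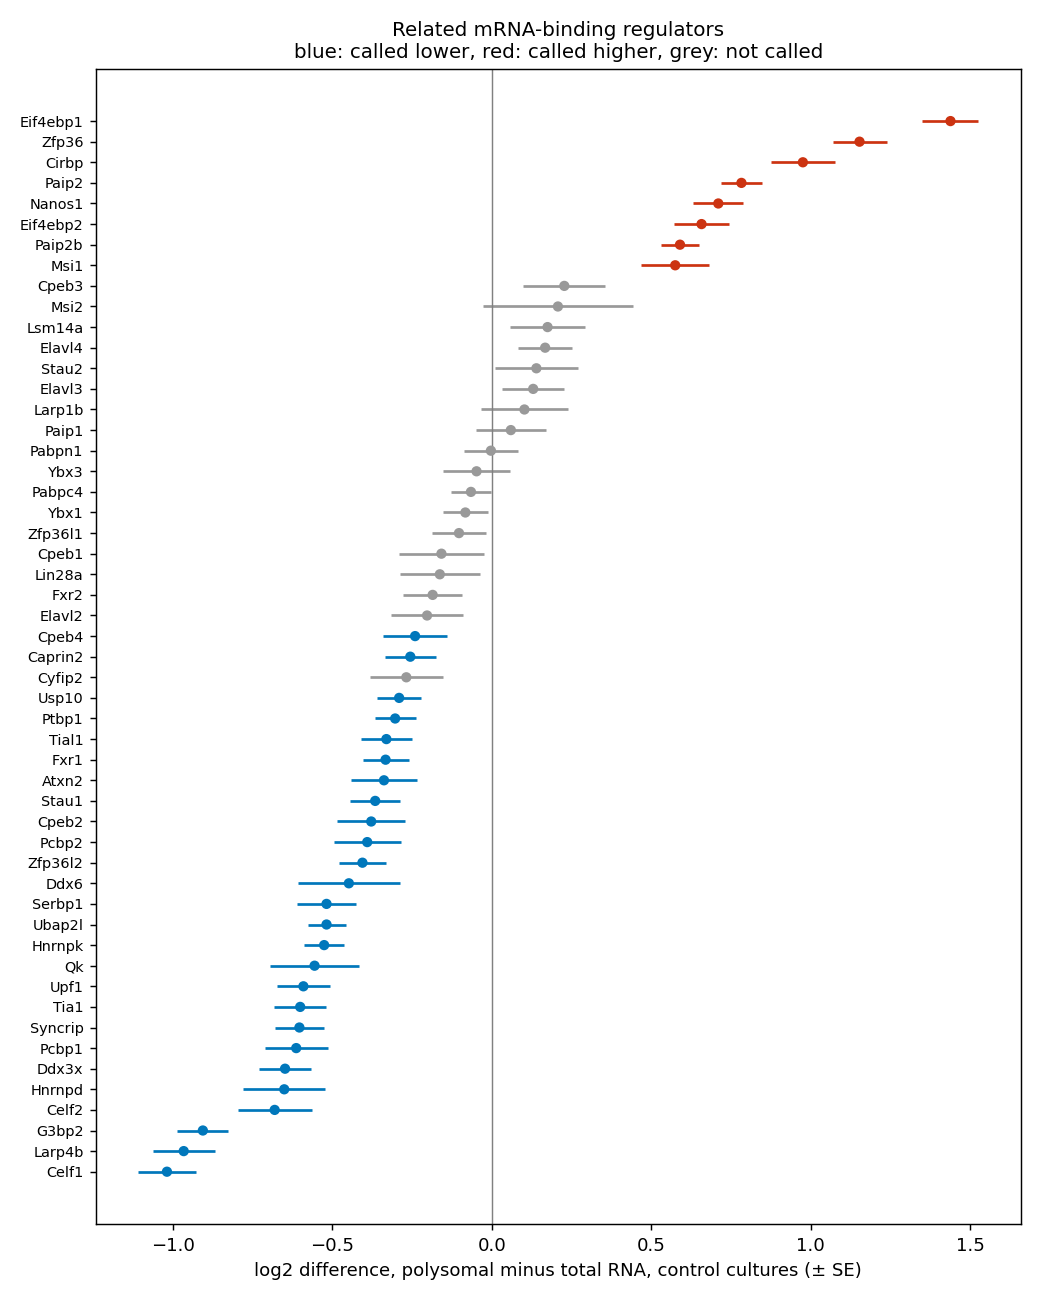
The log2 difference of polysomal minus total RNA in control cultures (horizontal axis, ± SE) is drawn for the 52 related genes in order of size. Blue points (26 genes) passed as lower and red points (8 genes) as higher, and the order runs from Celf1 at -1.02 to Eif4ebp1 at 1.44.

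CD95L-T4 against control called 0 of the 52 in total RNA, in polysomal RNA and in the interaction in limma, with 1, 9 and 1 at an unadjusted p under 0.05, against 3.44%, 9.49% and 3.99% of all genes. In total RNA the smallest p belonged to Lin28a (-0.30 ± 0.13), Cirbp (0.18 ± 0.10) and Ybx3 (-0.16 ± 0.10), each at an adjusted p of 0.997. In polysomal RNA they belonged to Stau2 (0.43 ± 0.14, adjusted p = 0.474), Eif4ebp1 (-0.28 ± 0.09, adjusted p = 0.474) and Elavl2, a neuronal relative of Elavl1 (0.33 ± 0.12, adjusted p = 0.483). In the interaction they belonged to Stau2 (0.59 ± 0.19), Ybx3 (0.32 ± 0.15) and Qk (0.41 ± 0.21), each at an adjusted p of 0.897. Without CD95L-T4 polysomal replicate 2, 13 of the 52 passed in polysomal RNA, 11 higher and 2 lower, against 6.37% of all genes, and 0 passed when only the polysomal arrays were fitted. Elavl2 then stood at 0.53 ± 0.09 (adjusted p = 0.00925) and Larp4b at 0.40 ± 0.07 (adjusted p = 0.00925), and the 2 lower genes were Zfp36 (-0.33 ± 0.09, adjusted p = 0.0432) and Eif4ebp1 (-0.36 ± 0.10, adjusted p = 0.0451).

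The genes most like each member were found from the brightest probe sets, as those with the smallest root mean square difference between log2 profiles over the 15 arrays, each centred on its own mean. Nearest to Caprin1 were Chd4, Shcbp1 and Afg3l2 (0.05, 0.06 and 0.07), where the median gene lay 0.42 away. Nearest to Larp1 were Hip1, Uhrf1bp1 and Psme4 (0.06, 0.07 and 0.07, median 0.57), and nearest to Fmr1 were Cask, Cttn and Nckap1 (0.05, 0.06 and 0.06, median 0.46). G3bp1 lay nearest to Dlg1, Upf1 and Itprid2 (0.05, 0.07 and 0.07, median 0.36), of which Upf1 was also on the list of related regulators. Pum2 lay nearest to Fam120a, Srsf11 and Gigyf1 (0.07, 0.07 and 0.08), Elavl1 to Rsu1, Rae1 and Sdcbp (0.06, 0.07 and 0.07) and Pabpc1 to Cul1, Trim33 and Fam120b (0.05, 0.06 and 0.06). Igf2bp3 lay nearest to Rac1, Ralgps2 and Brd1, and the dim Igf2bp1 to Aste1, Trappc4 and Carns1, at 0.07 to 0.09. The nearest genes share the member's difference between fractions, as Chd4 (-0.76) does that of Caprin1 (-0.73) and Hip1 (-0.99) that of Larp1 (-1.03), since all 15 arrays enter the measure.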

How the data were processed

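The deposited table holds log2 intensities of 22690 probe sets on 15 arrays, which the authors normalized between arrays; the method is not given in the sources used here. Without 64 Affymetrix controls, 22626 were tested. Probe sets were named from the platform annotation (20380 with 1 gene, 691 with several, 1555 with none), with current names by gene identifier from the RefSeq table. The values were fitted in limma 3.58.1 (R 4.3.3) as group means, all arrays sharing 1 moderated variance per probe set, with two-sided tests and Benjamini-Hochberg adjustment over all 22626 probe sets of a contrast (threshold 0.05). Errors of differences are moderated standard errors. Groups came from the sample titles. Arrays have no read depth, and precision is limited by how many there are. The same steps were tested in 5 draws of simulated data, with 200 of 22626 probe sets changed. The control fraction contrast recovered 80.2% of changes of 1.5-fold and 98.6% of those of 2-fold. For CD95L-T4 these shares were 77.6% and 99% in total RNA, and 73.4% and 97.8% in polysomal RNA. The interaction recovered 42.2% and 88.8%. The real control fraction contrast called 12704 probe sets, far more than 200, so the unadjusted p needed to pass differed from the simulated one. In real polysomal RNA the calls for CD95L-T4 ran from 0 to 1386 on leaving out each array. The shares therefore describe the simulated data and do not give the power of the real contrasts.

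Members and lists were chosen with earlier results of these data known. The genes named were all members, the 6 largest called rises and falls of the related list per fraction contrast (the 3 smallest p in the others), and the 3 genes most like each member; Fxr1, Fxr2, Paip1, Paip2b and Larp4b without replicate 2 were added after values were seen, as were the brightness classes and the comparison of probe sets. Alternatives were quantile normalization, equal medians, leaving out the dimmest 25% of probe sets, only the compared groups, a trended and robust variance, a replicate block, the mean of a gene's probe sets and each array left out.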

Additional observations from a re-analysis of the deposited data

Results flagged for a closer look

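In 6 of the 75 groups of 4 arrays examined (25 probe sets in 3 groups), 1 array stood apart from the others by Dixon's test at the 95% level, which flags about 1 in 20 groups by chance. Control polysomal replicate 4 was the highest array for Elavl1 1431037_a_at, at 9.79 against 9.60 for the next, and for Igf2bp1 1418761_at, at 4.54 against 4.34. CD95L-T4 total replicate 3 was the lowest for Elavl1 1448151_at, at 10.33 against 10.47, and CD95L-T4 total replicate 1 the lowest for Caprin1 1416461_at, at 12.25 against 12.35. Control total replicate 3 was the lowest for Igf2bp3 1422610_s_at, at 7.55 against 7.60, and control total replicate 1 the highest for G3bp1 1422801_at, at 11.14 against 10.99. The group of 3 CD95L-T4 polysomal arrays, the widest spread for Elavl1, is too small for this test.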

How the results depend on the processing

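No member probe set changed direction past the threshold under any alternative run. In control cultures the count of members differing between fractions was 20, 19 with quantile normalization or without the dimmest 25% of probe sets, and 20 under the other alternatives, each array left out included. In CD95L-T4 cultures it was 18, 17 with equal medians or without the dimmest 25%, 16 with only the compared groups, and 16 to 18 on leaving out any array. Replicate numbers were not taken to pair the samples: deviations of same-numbered arrays from their group means correlated at -0.234 to 0.219, and in no comparison made here did every pair exceed 0.1. All 4 pairs of CD95L-T4 total with control polysomal arrays, groups that differ in both treatment and fraction, did (0.218, 0.139, 0.219 and 0.172). With a replicate block the counts were 20 and 17, and the block changed no call other than that of G3bp1 1455060_at given above. Only leaving out CD95L-T4 polysomal replicate 2 gave calls for CD95L-T4 against control: in polysomal RNA 1 member, 13 related genes and 1386 of all probe sets, and 2 of all probe sets in the interaction, so that on leaving out each array in turn these counts ran from 0 to 1, 0 to 13, 0 to 1386 and 0 to 2. With only the compared groups and without that array, a setting added after the data were seen, the count for CD95L-T4 was 0 and the fraction count in CD95L-T4 cultures 15. The table gives no signal over background, so whether dim probe sets such as those of Igf2bp1 were detected is unknown.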
